A study of Rattus norvegicus with 11 samples.

Results

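The genes for sodium, potassium and calcium channels and their subunits were examined in the striatum of 11 rats. Genes were taken by symbol alone, as those starting with Scn and a digit, with Kcn or with Cacn, leaving out Kcnj8 and Kcnj10, with a mean level of at least 1 TPM in any of the 4 groups. TPM is a read count divided by gene length and scaled to the same total in each library. Of 30560 genes in the table, 131 matched by symbol and 111 had the required level, namely 11 sodium, 78 potassium and 22 calcium channel genes. Of the 111, 110 had counts high enough for testing, and Kcnj13 had not. The mean level was at least 1 TPM in all 4 groups for 93 genes, in 3 groups for 6, in 2 groups for 7 and in 1 group for 5. Kcng3, Kcnh5, Kcnh7 and Kcnj13 were kept through Normal alone and Kcnmb1 through IS alone, so their difference is in part set by the rule. Kcne3, Kcnk7 and Scn7a had Normal means of 0.0469, 0.386 and 0.549 TPM and were kept only through injured groups. Their difference from Normal is likewise in part set by the rule. The highest group means just inside the limit were 1.11 TPM for Kcnj13 and 1.23 for Kcne3, and those just outside were 0.836 for Kcnk5 and 0.594 for Scn4a.

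Voltage-gated channels open when the membrane potential changes. Sodium channels carry the upstroke of the action potential, potassium channels repolarize the membrane and set the resting potential and firing rate, and calcium channels turn depolarization into calcium entry, transmitter release and gene regulation. Each pore works with auxiliary subunits that set its gating and its place in the membrane. In the striatum, the projection neurons are held at a negative resting potential by inward rectifiers, and A-type currents slow their climb to threshold. The symbol rule also takes in relatives that voltage does not gate, or gates weakly: the inward rectifiers (Kcnj), the 2-pore-domain leak channels (Kcnk), the small-conductance calcium-activated channels (Kcnn) and the gamma subunits (Cacng), most of which accompany AMPA receptors. Some of these are known from immune cells, glia or vessels.

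Intracerebral hemorrhage had been made in adult male Sprague-Dawley rats by injecting bacterial collagenase VII-S, which breaks down the vessel wall, into the striatum. IC (common hemorrhage, n = 3) received 0.2 U in 1.0 µL and IS (severe hemorrhage, n = 3) received 0.6 U in 3.0 µL. IS-HA (n = 3) received the IS injection followed by aspiration of 150 µL of the hematoma at 6 h. Normal rats (n = 2) had neither injection nor aspiration, so the effects of the needle and the enzyme cannot be told apart from that of the blood in any comparison with Normal. The ipsilateral striatum was taken on day 3, and the matching region was taken in Normal. Each library came from 1 rat. The labels name the rats only by replicate number (Normal 1 and 3, IC 2 to 4, IS 2 to 4, IS-HA 1 to 3).

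The libraries held 6701301 to 18817645 counts assigned to genes, and 3 counts corresponded to 0.159 to 0.448 CPM, that is counts scaled to the library total. The shallowest library was IS-HA replicate 2, followed by IS replicate 4. Summed TPM of 12 neuron markers (Rbfox3, Snap25, Map2 and others) was 4027 and 5219 in Normal, 1802 to 2818 in IC, 806.5 to 2469.8 in IS and 1728 to 3008 in IS-HA, so RNA of neurons was present in every library. The lowest of these sums was that of IS replicate 4. Summed TPM of 12 microglia and macrophage markers was 370.5 and 541 in Normal, 2811 to 3869.6 in IC, 5253 to 6705 in IS and 3782 to 6302 in IS-HA. In whole tissue, fewer cells of a type and less RNA per cell cannot be told apart.

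To show what channel promoters that move in opposite directions look like, 4 windows are printed, each from 250 bases before to 50 bases after the start of the gene. Scn8a and Cacna1e were among the genes with the largest falls in IS, and Kcnk13 and Scn7a were 2 of the 5 that rose. Another window, Cacng3, is shown for a repeated motif. Coordinates and sequences are from RefSeq on GRCr8, which is a later build than that of the counts. Motifs were searched on both strands: the TATA box (TATAAA), the CCAAT box (CCAAT), the GC box (GGGCGG), the activator protein site (TGANTCA), the cAMP response element (TGACGTCA), the ETS core (GAGGAA) and the left and right parts of the neuron-restrictive RE1 element (TTCAGCACC and GGACAGCGC). Capitals mark every match.
Scn8a, chr7:133860977-133861276, plus strand: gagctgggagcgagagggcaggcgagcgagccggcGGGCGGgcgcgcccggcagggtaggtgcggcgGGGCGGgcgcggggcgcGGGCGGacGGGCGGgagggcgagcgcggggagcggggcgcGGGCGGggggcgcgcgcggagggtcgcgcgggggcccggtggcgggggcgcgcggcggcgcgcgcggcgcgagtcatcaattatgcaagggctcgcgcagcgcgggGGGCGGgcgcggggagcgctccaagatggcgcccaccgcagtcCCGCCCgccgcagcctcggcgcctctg
Cacna1e, chr13:69444761-69445060, minus strand: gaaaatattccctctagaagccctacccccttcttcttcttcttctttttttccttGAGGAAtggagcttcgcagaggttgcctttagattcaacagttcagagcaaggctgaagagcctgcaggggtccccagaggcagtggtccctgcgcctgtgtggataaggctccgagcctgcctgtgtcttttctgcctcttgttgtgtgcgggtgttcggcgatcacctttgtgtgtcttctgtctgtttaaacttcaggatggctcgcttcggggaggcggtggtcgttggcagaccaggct
Kcnk13, chr6:124971559-124971858, plus strand: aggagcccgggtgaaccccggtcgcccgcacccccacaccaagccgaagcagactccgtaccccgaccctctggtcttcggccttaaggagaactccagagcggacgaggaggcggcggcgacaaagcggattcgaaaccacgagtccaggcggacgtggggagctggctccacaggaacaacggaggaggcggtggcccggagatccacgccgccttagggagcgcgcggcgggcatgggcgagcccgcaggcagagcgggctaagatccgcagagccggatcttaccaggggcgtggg
Scn7a, chr3:71846235-71846534, minus strand: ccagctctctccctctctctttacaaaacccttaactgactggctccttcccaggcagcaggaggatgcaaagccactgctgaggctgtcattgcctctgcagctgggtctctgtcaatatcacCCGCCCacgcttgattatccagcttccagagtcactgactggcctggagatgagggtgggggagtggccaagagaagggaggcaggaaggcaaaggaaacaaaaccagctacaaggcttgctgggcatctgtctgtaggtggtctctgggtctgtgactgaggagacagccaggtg
Cacng3, chr1:186632312-186632611, plus strand: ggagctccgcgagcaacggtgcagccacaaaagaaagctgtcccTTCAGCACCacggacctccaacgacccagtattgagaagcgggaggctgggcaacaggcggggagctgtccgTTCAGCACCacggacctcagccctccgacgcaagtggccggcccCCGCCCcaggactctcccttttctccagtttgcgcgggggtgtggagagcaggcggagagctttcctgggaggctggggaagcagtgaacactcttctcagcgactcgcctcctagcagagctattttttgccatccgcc
The Scn8a window had a GC content of 84.7% with 60 CG dinucleotides and 7 GC boxes. The Cacna1e window had a GC content of 53.7% with 10 CG dinucleotides, so these 2 genes, which fell together, differed widely in base composition. The Kcnk13 window had 33 CG dinucleotides and none of the 8 motifs searched, and the Scn7a window had 2 CG dinucleotides. The Cacng3 window held TTCAGCACC at positions 45 and 117, counted from its 5′ end. A promoter was given for 73 of the 111 genes (81 windows), and Kcnq3, Kcnn4 and Kcnk6 are named without one. The median GC content of the 81 windows was 62.3%, beside 59.7% for the 13776 windows of tested genes and 51.7% for all 33469 windows. TATAAA stood in 2 of the 81 windows (2.47%), in 7.58% of the windows of tested genes and in 14.2% of all windows. CCAAT stood in 22.2%, 36.9% and 37.5%, GGGCGG in 51.9%, 56.9% and 33.1%, and GAGGAA in 27.2%, 27.1% and 27.6%, in the same order. TTCAGCACC stood in 2 of the 81 windows (2.47%), beside 0.465% and 0.356%. The other RE1 part, GGACAGCGC, stood in 0 of the 81 windows, beside 0.697% and 0.415%. TGANTCA stood in 2.47%, 5.24% and 7.33%, and TGACGTCA in 0%, 2.85% and 1.83%. These are matches of letters and were given no test.

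The summed level of the channel genes was lower in every injured rat than in both Normal rats. Channel genes took 0.818% and 0.992% of all counts in Normal, 0.442 to 0.611% in IC, 0.202 to 0.408% in IS and 0.270 to 0.494% in IS-HA. Summed TPM of the sodium channel genes was 1213 and 1567 in Normal, 629 to 943 in IC, 255 to 690.5 in IS and 369 to 766 in IS-HA. For the potassium channel genes tested, it was 2063 and 2600.3 in Normal, 1168 to 1551 in IC, 610.3 to 1029.9 in IS and 697 to 1354 in IS-HA. For the calcium channel genes, it was 1128 and 1273 in Normal, 621 to 839.7 in IC, 288 to 539 in IS and 349 to 637 in IS-HA. The 3 classes stood at 36.2%, 38.0% and 35.9% of the Normal mean in IS. In all 3 classes the ranges of IC and IS-HA overlapped, and IS replicate 4 and IS-HA replicate 2 were the lowest libraries of their groups.

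**Figure D1:**
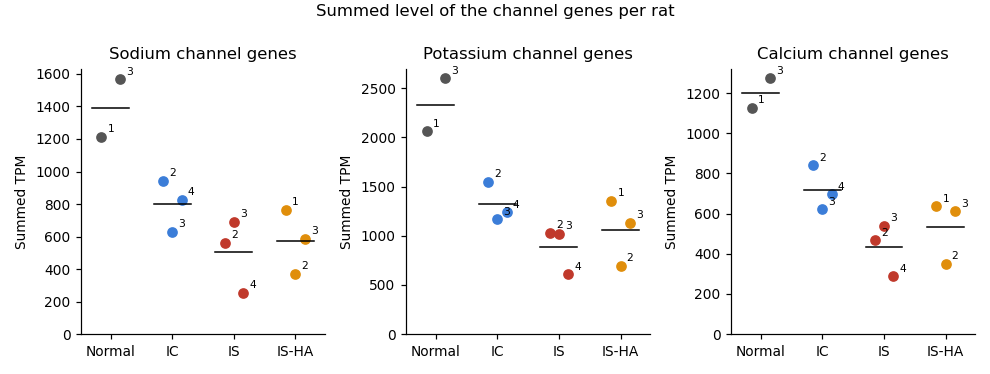
Summed TPM of the sodium, potassium and calcium channel genes tested (vertical axes, linear from 0) in each rat, by group, with replicate numbers beside the points and lines at group means. Every injured rat lies below both Normal rats, and IS replicate 4 is the lowest in each class.

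A gene was called where the adjusted p of edgeR's quasi-likelihood test was under 0.05 and the log2 fold change was at least 1 in size. In IS against Normal, 68 of the 110 channel genes (61.8%) were called lower and 5 (4.55%) higher, whereas 17.0% of all 15742 genes tested were called lower and 18.8% higher. Among the called genes, Kcng3 and Kcnh7 had been kept through Normal alone, and Kcne3 and Scn7a only through injured groups. The median log2 fold change of the channel genes was −1.48, beside 0.02 for all genes. Calcium channel genes had 19 of 22 called lower and 0 higher (median −1.71), sodium channel genes 7 of 11 lower and 1 higher (median −1.81), and potassium channel genes 42 of 77 lower and 4 higher (median −1.38). These medians stayed below 0 under the other scalings, except for calcium and potassium relative to the neuron markers (described below). There the medians were 0.12 for calcium, 0.40 for potassium and −0.03 for sodium. All calls against Normal rest on the same 2 Normal rats.

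**Figure D2:**
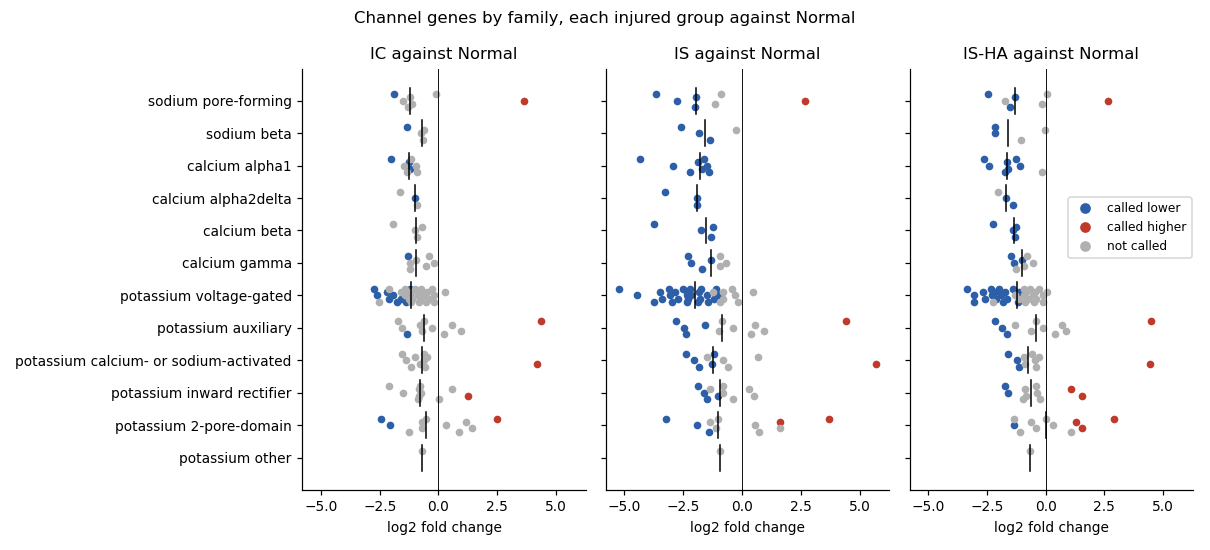
log2 fold changes (horizontal axes) of the 110 channel genes tested, by family, in IC, IS and IS-HA against Normal, with blue points called lower, red points called higher, grey points not called and black lines at family medians. In IS, the calcium alpha1, alpha2delta and beta families lie wholly among the called lower genes, and red points are few.

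Among pore-forming sodium channels, 4 of 7 fell in IS and 1 rose. Scn8a encodes the main sodium channel of the axon initial segment and nodes in mature neurons. It stood at 23.7 and 62.1 TPM in Normal, at 15.6, 11.7 and 8.02 in IC, at 4.87, 3.16 and 1.80 in IS and at 11.4, 2.59 and 10.6 in IS-HA. The 2 Normal rats differed widely, but every injured rat was lower, and the IS rats lay below the IC rats. The log2 fold change in IS against Normal was −3.68 ± 0.54 (SE, adjusted p = 0.00045). Scn2a, the most abundant pore in these samples, was at 55.3 and 96.7 TPM in Normal and at 28, 20.4 and 8.37 in IS (−2.0 ± 0.45, adjusted p = 0.0047). Scn1a, prominent in fast-spiking interneurons, was at 21.9 and 43.8 TPM in Normal and at 10.6, 9.21 and 4.98 in IS (−1.97 ± 0.42, adjusted p = 0.0032). Both fell, with no overlap between the groups. Scn3a, the fourth brain pore, also fell (−2.79 ± 0.64, adjusted p = 0.0049). Scn9a, better known from sensory neurons, was at group means of 0.715 to 1.35 TPM and was not called.

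Scn7a moved the other way. It encodes a sodium channel relative of glia and peripheral tissues that senses sodium rather than voltage. It was at 0.223 and 0.874 TPM in Normal, at 7.66, 6.76 and 6.46 in IC, at 3.95, 3.93 and 2.55 in IS and at 5.4, 0.961 and 4.37 in IS-HA. Every injured rat exceeded the Normal rats, the IC rats were the highest, and IS-HA replicate 2 was close to Normal. It rose in IS (2.70 ± 0.61 log2, adjusted p = 0.0046), in IC (3.63 ± 0.62, adjusted p = 0.0027) and in IS-HA (2.66 ± 0.61, adjusted p = 0.0086). Scn7a had been kept only through injured groups, so the size of these rises is in part set by the rule.

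Of the sodium beta subunits, which tune gating and anchor the pores, 3 fell in IS. Scn4b, the subunit behind resurgent current and the most abundant channel gene of the Normal striatum, was at 480 and 590 TPM in Normal, at 383, 242 and 359 in IC, at 116, 263 and 73.0 in IS and at 229, 65.3 and 75.6 in IS-HA. It fell in IS (−1.81 ± 0.55, adjusted p = 0.019), a call that was lost without Normal replicate 1 (adjusted p = 0.053), Normal replicate 3 (0.088), IS replicate 2 (0.058) or IS replicate 4 (0.061), and its IS-HA mean of 123 TPM was no higher than its IS mean of 151. Scn3b fell from 188 and 235 TPM to 35.8, 45.3 and 22.2 (−2.61 ± 0.33, adjusted p = 0.00020), and Scn2b fell from 216 and 277 TPM to 119, 124 and 43.0 (−1.38 ± 0.38, adjusted p = 0.013). Within Scn1a, Scn2a, Scn3a and Scn8a, the share of Scn8a (mean ± SD of the rats) was 23.5 ± 4.83% in Normal and 9.81 ± 0.896% in IS. This share was chosen after its values were seen and was given no test.

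All 8 calcium alpha1 genes, which encode the pores, fell in IS. Cacna1e, the R-type pore, was at 11.6 and 30.2 TPM in Normal, at 7.74, 4.74 and 3.36 in IC, at 1.47, 0.906 and 0.634 in IS and at 4.13, 1.64 and 4.48 in IS-HA. The 4 groups lay apart except that IC and IS-HA overlapped, and the fall in IS was −4.34 ± 0.48 (adjusted p = 0.00010). Cacna1h and Cacna1i, T-type pores that open near rest, were the most abundant alpha1 genes. Cacna1h was at 39.4 and 42.7 TPM in Normal and at 9.77, 15.2 and 12.6 in IS (−1.69 ± 0.20, adjusted p = 0.00016). Cacna1i was at 26.3 and 40.5 TPM in Normal and at 5.03, 5.35 and 2.56 in IS (−2.93 ± 0.50, adjusted p = 0.0010). The L-type pores Cacna1c and Cacna1d, which link activity to transcription, fell by 2.23 and 1.88, and the presynaptic pores Cacna1a (P/Q-type) and Cacna1b (N-type) fell by 1.5 and 1.62 on the log2 scale. Cacna1g, the third T-type pore, fell by 1.41 in IS and had a mean of 8.39 TPM in IS-HA beside 9.26 in Normal (log2 fold change −0.17, adjusted p = 0.79).

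Among the calcium auxiliary genes, all 3 alpha2delta and all 4 beta genes, which carry the pores to the membrane, and 4 of 7 gamma genes fell in IS. Cacna2d3 was at 73.1 and 92.2 TPM in Normal and at 24.7, 27.2 and 12.7 in IS (−1.93 ± 0.33, adjusted p = 0.0012). Cacna2d2 was at 62.5 and 69.8 TPM in Normal and at 16.0, 23.0 and 13.0 in IS (−1.91 ± 0.24, adjusted p = 0.00021). Cacnb4 was at 16.2 and 36.8 TPM in Normal and at 3.16, 1.44 and 1.21 in IS, the sharpest fall of a beta gene (−3.75 ± 0.68, adjusted p = 0.0015). The more abundant Cacnb3 and Cacnb1 fell by 1.32 and 1.24. Of 6 gamma genes that accompany AMPA receptors, Cacng2, Cacng3, Cacng5 and Cacng8 fell. Cacng4 (−0.95, adjusted p = 0.010) and Cacng7 (−0.93, adjusted p = 0.023) missed the limit on the fold change. Cacng2, known as stargazin, was at 36 and 41.1 TPM in Normal and at 8.40, 12.5 and 4.11 in IS (−2.18 ± 0.37, adjusted p = 0.00096).

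Of the 34 genes of the voltage-gated potassium family, which by symbol takes in silent subunits such as Kcng3, 26 fell in IS and 0 rose (median −2.02). Kcnq3, a pore of the M-current that restrains repeated firing, had the most negative value of all channel genes. It was at 22.3 and 54.7 TPM in Normal, at 9.79, 5.95 and 3.86 in IC, at 1.65, 1.02 and 0.253 in IS and at 7.56, 1.27 and 5.29 in IS-HA. Every IS rat lay below every IC rat, and the fall in IS was −5.24 ± 0.70 (adjusted p = 0.00027). Kcng3, an electrically silent subunit that modifies Kcnb pores, had 82 counts over the Normal libraries and 3 over the IS libraries, a rate 22.3 times higher in Normal (exact 95% interval for counting error 7.37 to 110). Kcnh7 fell by 3.75, from 1.73 and 6.82 TPM to 0.561, 0.195 and 0.140, levels near those of a few counts. Kcng3 and Kcnh7 had been kept through Normal alone, so the size of their falls is in part set by the rule. Kcna1, a low-threshold pore of axons, was at 73.8 and 116 TPM in Normal and at 37.7, 30.4 and 13.7 in IS (−1.80 ± 0.40, adjusted p = 0.0043). Its relative Kcna6 fell by 1.12 (adjusted p = 0.016). Of the 4 Kcnc genes, whose pores allow fast spiking, 3 fell, among them Kcnc1 and Kcnc2. Of 7 genes of the A-type current, Kcnd2, Kcnd3, Kcna4, Kcnip2 and Kcnip4 fell. Kcnd2, its main pore in dendrites, went from 80.3 and 126 TPM in Normal to 18.0, 17.1 and 4.51 in IS (−2.96 ± 0.63, adjusted p = 0.0033). Kcns1 (0.48, adjusted p = 0.40) was the only gene of the voltage-gated potassium family with a value above 0.

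Of the 11 potassium auxiliary genes, 4 fell and 1 rose in IS. Kcnip2, a calcium-binding partner of the A-type pores, was at 357 and 313 TPM in Normal, at 83.6, 150 and 101 in IS and at 133, 63.1 and 93.4 in IS-HA (IS against Normal −1.57 ± 0.29, adjusted p = 0.0018). Kcnab1, a beta subunit of the Kcna pores, was at 178 and 217 TPM in Normal and at 33.7, 51.1 and 20.6 in IS (−2.48 ± 0.42, adjusted p = 0.0010). Neither gene had an IS or IS-HA rat within the Normal range. Kcnip3 (−0.37, adjusted p = 0.38) and Kcnip1 (−0.87, adjusted p = 0.15) were not called, and IS rats overlapped Normal for both.

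Of the 10 inward rectifiers tested, 4 fell in IS. Kcnj4 and Kcnj2, the rectifiers that hold striatal projection neurons at rest, both fell. Kcnj4 was at 115 and 132 TPM in Normal, at 88.0, 45.8 and 80.5 in IC, at 49.0, 53.1 and 17.1 in IS and at 59.6, 29.4 and 34.4 in IS-HA (IS −1.63 ± 0.42, adjusted p = 0.0089). Kcnj2 was at 28.4 and 29.4 TPM in Normal and at 8.50, 8.24 and 6.94 in IS (−1.86 ± 0.29, adjusted p = 0.00061). Kcnj12 and Kcnj11, the latter a pore of ATP-sensitive channels, were the other two. The G protein gated rectifiers Kcnj3, Kcnj6 and Kcnj9 were not called. Their IS rats were widely spread, as for Kcnj9 at 35.6, 20.9 and 4.54 TPM beside 27.4 and 43.4 in Normal (−0.81 ± 0.54, adjusted p = 0.23). Kcnj16, a glial and epithelial rectifier, was at 2.59 and 2.93 TPM in Normal and at 4.67, 2.95 and 2.56 in IS (0.30, adjusted p = 0.42).

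Among the calcium- or sodium-activated channels, 5 of 10 fell and Kcnn4 rose. Kcnma1, the large-conductance pore, was at 11.8 and 21.4 TPM in Normal and at 4.57, 3.59 and 1.37 in IS (−2.36 ± 0.54, adjusted p = 0.0051). Kcnt1, a sodium-activated pore, fell from 88.3 and 96.9 TPM to 30.5, 52.1 and 31.5 (−1.26 ± 0.25, adjusted p = 0.0026). Kcnmb4, the neuronal partner of Kcnma1, was at 64.8 and 61.7 TPM in Normal and at 61.5, 42.4 and 22.5 in IS (−0.59, adjusted p = 0.15). The small-conductance pores Kcnn2 and Kcnn3 fell by 1.18 and 1.82.

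Kcnn4, the intermediate-conductance calcium-activated channel known from lymphocytes, macrophages and microglia, had the largest rise. It was at 0.952 and 1.36 TPM in Normal, at 11.3, 34.5 and 21.3 in IC, at 37.5, 49.9 and 90.2 in IS and at 17.4, 36.2 and 20.6 in IS-HA. Every injured rat was far above Normal, and the IS rats were all above the IC rats. They were also above the IS-HA rats in TPM, but not in TMM-scaled CPM, where IS-HA replicate 2 (40.1) lay above IS replicate 2 (33.1). The rise in IS was 5.71 ± 0.74 (adjusted p = 0.00024). Within Kcnn1 to Kcnn4, its share of summed TPM (mean ± SD of the rats) was 3.91 ± 0.285% in Normal, 54.0 ± 16.7% in IC, 81.1 ± 10.7% in IS and 60.2 ± 16.5% in IS-HA. This description was chosen after the values were seen.

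Of the 11 2-pore-domain genes, 3 fell and 2 rose in IS. Kcnk6 was at 1.17 and 1.19 TPM in Normal, at 4.63, 9.26 and 6.76 in IC, at 13.0, 10.4 and 21.5 in IS and at 7.54, 9.77 and 9.06 in IS-HA (IS 3.68 ± 0.47, adjusted p = 0.00021). Kcnk13, a leak channel of microglia, was at 6.5 and 5.57 TPM in Normal, at 10.5, 13.9 and 10.1 in IC, at 15.3, 16.6 and 23.3 in IS and at 14.0, 16.3 and 14.7 in IS-HA (IS 1.63 ± 0.30, adjusted p = 0.0017). For both genes the IS rats lay above all IC rats. Kcnk2, a mechanosensitive leak channel and the most abundant of the family, was at 75.3 and 89.2 TPM in Normal and fell to 33.0, 41.8 and 16.4 in IS (−1.43 ± 0.37, adjusted p = 0.010). Kcnk1 was at 44.3 and 61.2 TPM in Normal and at 39.9, 25.2 and 9.22 in IS (−1.10 ± 0.42, adjusted p = 0.051). Kcnk3 and Kcnk9, acid-sensitive leak channels, also fell, by 1.91 and 3.25.

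Kcne3, a small subunit that alters several potassium pores, rested on few reads. It had 2 counts over the Normal libraries and 41 over the IS libraries, a rate 25.1 times higher in IS (exact 95% interval for counting error 6.52 to 214). Its level was 0.0938 and 0 TPM in Normal and 0.366, 0.977 and 2.21 in IS. Kcne3 had been kept only through injured groups, so the size of its rise is in part set by the rule. On a list of 5 genes known from immune cells, Kcnn4, Kcnk6, Kcnk13 and Kcne3 rose in IS. Kcna3, a potassium channel of T cells that neurons also express, fell (−1.02, adjusted p = 0.0091). Summed TPM of these 5 genes was 17.7 and 22.9 in Normal, 35.9 to 68.3 in IC, 73.7 to 142 in IS and 50.7 to 68.5 in IS-HA. All 12 microglia and macrophage markers and all 5 neutrophil markers tested were also called higher in IS, and the part of these cells in the rise was not tested.

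**Figure D3:**
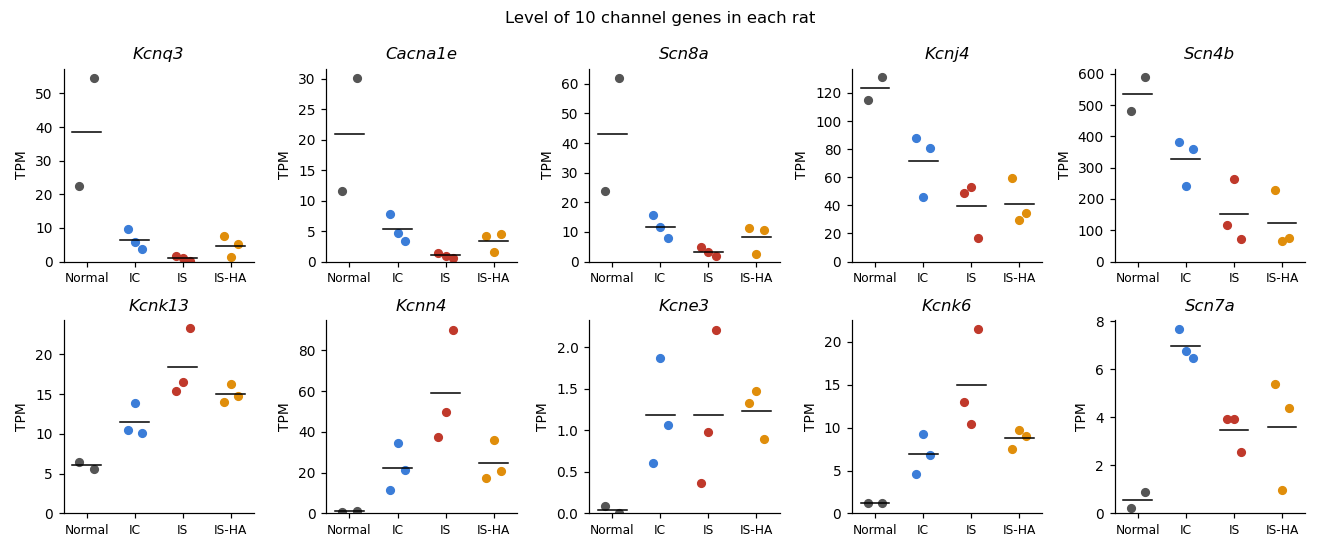
TPM (vertical axes, linear from 0) of 10 channel genes in each rat by group, with lines at group means. By group mean, Kcnq3, Cacna1e and Scn8a are lowest in IS, and Kcnn4, Kcnk6 and Kcnk13 are highest in IS.

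Genes that work with the channels mostly fell too. Of 15 channel partners, 13 were called lower in IS and 0 higher (median −1.81). Ank3, which encodes the scaffold of the axon initial segment, went from a mean of 70.0 to 11.4 TPM (−2.60 ± 0.30, adjusted p = 0.00012). Cntnap2, which clusters potassium channels beside the node, went from 32.5 to 3.01 TPM (−3.41 ± 0.38, adjusted p = 0.00010). Of 7 related cation channels, 6 fell, among them Hcn2, a pacemaker channel (−1.44), and Nalcn, the sodium leak channel (−1.79). Of 11 pump and transporter genes, 7 fell and 1 rose. The sodium pump subunit Atp1b2 had a value of −0.01 (adjusted p = 0.99), and Atp1b3 rose by 1.26 ± 0.26 (adjusted p = 0.0032). Of the 9 genes tested on a list of the axon initial segment and node, 8 fell. All 6 genes of presynaptic calcium entry fell, and 0 of the 3 glial and mural channel genes tested were called.

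**Figure D4:**
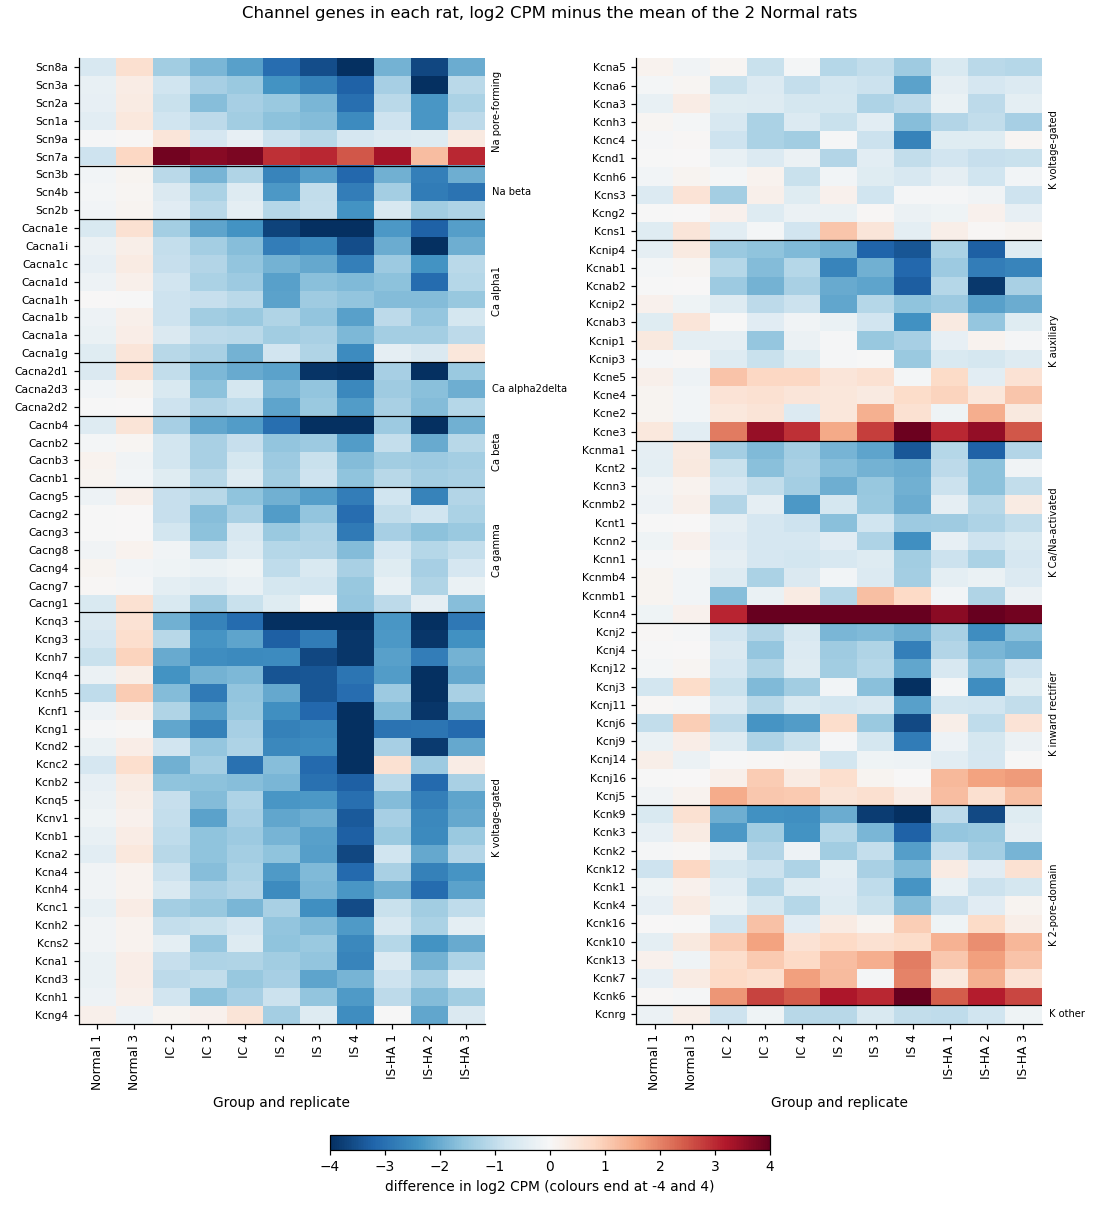
log2 CPM of 107 channel genes (rows, by family and then by fold change in IS) in each rat (columns), minus the mean of the 2 Normal rats, from −4 (blue) to 4 (red). Blue dominates in IS replicate 4 and IS-HA replicate 2, and the few red rows include Scn7a, Kcne3, Kcnn4 and Kcnk6 in all injured groups.

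In IC against Normal, the smaller hemorrhage, 21 of 110 channel genes were called lower and 5 higher, beside 2.66% and 10.9% of all genes. All 21 were among the 68 called lower in IS, an overlap that was not counted over all genes. They included Kcnq3 (−2.60 ± 0.61, adjusted p = 0.014), Cacna1e (−2.03 ± 0.44, adjusted p = 0.0093), Scn8a (−1.91 ± 0.50, adjusted p = 0.026) and Scn3b (−1.35 ± 0.32, adjusted p = 0.016). Scn4b (−0.74, adjusted p = 0.36) and Kcnj4 (−0.83, adjusted p = 0.18) were not called. The genes called higher were Kcne3, Kcnn4, Scn7a, Kcnk6 and Kcnj5, the last a G protein gated rectifier at 2.07 and 2.74 TPM in Normal and at 7.26, 5.56 and 4.82 in IC (1.23 ± 0.28, adjusted p = 0.012). Kcne3 and Scn7a had been kept by the rule only through injured groups. The count called lower was unstable. It was 0 without Normal replicate 3 (0.174% of all genes) and 8 without Normal replicate 1 (1.31%). It was 4 without either IC replicate 3 (0.618%) or IC replicate 4 (0.796%). Without IS-HA replicate 2, which enters through the shared estimate of spread, it was 43 (6.07% of all genes).

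In IS-HA against Normal, 47 channel genes were called lower and 8 higher, beside 7.71% and 15.1% of all genes. Without Normal replicate 3 there were 15 and 5 (2.01% and 7.48% of all genes), and without Normal replicate 1 there were 36 and 5 (4.90% and 10.2%). Of the 47, 46 were also called lower in IS, the exception being Kcnh3. Cacna1h (−1.66), Kcnip2 (−1.84), Scn4b (−2.17) and Kcnj2 (−1.73) were among them. The genes called higher in IS-HA were Kcne3, Kcnn4, Kcnk6, Scn7a, Kcnk10, Kcnj16, Kcnk13 and Kcnj5. Kcnj16 was at 7.42, 7.16 and 10.04 TPM in IS-HA, above every rat of the other groups (1.55 ± 0.30, adjusted p = 0.0039). Across the 3 comparisons with Normal, which share the Normal rats, 17 genes were called lower in all and 4 higher in all (Kcne3, Kcnk6, Kcnn4 and Scn7a). These overlaps, and that of the 46 genes, were not counted over all genes. Kcne3 and Scn7a had been kept by the rule only through the injured groups.

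In IS against IC, which asks whether the larger hemorrhage differs from the smaller, edgeR called 0 channel genes in either direction, as it did for all genes (0% lower and 0% higher). At an unadjusted p under 0.05, 44 channel genes were lower in IS and 4 higher, beside 11.7% and 10.5% of all genes. In TMM-scaled CPM, the scale of the test, all IS rats lay below all IC rats for 46 channel genes and above them for 3, beside 18.7% and 19.2% of all genes. In TPM these were 52 and 3, beside 18.0% and 15.4%. The median log2 fold change was −0.71 for the channel genes and 0.00 for all genes. The smallest p values among those lower belonged to Cacna1e (−2.31 ± 0.44, adjusted p = 0.14), Scn3b (−1.26 ± 0.30, adjusted p = 0.15) and Kcnq3 (−2.64 ± 0.63, adjusted p = 0.15). Those among genes higher in IS belonged to Kcnk6 (1.2, adjusted p = 0.15), Kcnn4 (1.51, adjusted p = 0.16) and Kcnk13 (0.77, adjusted p = 0.16). DESeq2's Wald test called 12 lower and 2 higher, beside 2.20% and 1.63% of all genes. Without IS-HA replicate 2, edgeR called 16 lower and 2 higher, beside 3.87% and 2.19%. Cacna1e, Kcnq3, Scn8a and Scn3b were lower, and Kcnn4 and Kcnk6 higher, in both.

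By group means, Normal was the highest group for 92 of the 111 channel genes and IS the lowest for 77. The order Normal, IC, IS held for 81 genes. IS-HA lay between IS and Normal for 84 of the 96 genes with a Normal mean above the IS mean, at or above Normal for 2 and at or below IS for 10. These orders were given no test and were not counted over all genes. By the sign of the log2 fold change, 95 of 110 channel genes and 7755 of 15742 genes were lower in IS than in Normal. In IS against IC, 88 channel genes and 7882 of all genes were lower. In IS-HA against IS, 90 channel genes and 8778 of all genes were higher.

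In IS-HA against IS, which asks what followed hematoma aspiration, edgeR again called 0 channel genes, beside 0% of all genes lower and 0.00635% higher. At an unadjusted p under 0.05, 23 channel genes were higher in IS-HA and 2 lower, beside 5.58% and 3.36% of all genes. In TMM-scaled CPM, all IS-HA rats lay above all IS rats for 11 channel genes and below them for 0, beside 4.96% and 5.42%. In TPM they lay above for 5 and below for 2 (Kcnn4 and Kcnk6), beside 3.60% and 6.37%. The median log2 fold change was 0.48 for the channel genes and 0.05 for all genes, and relative to the neuron markers it was −0.28 and −0.77. The smallest p values among those higher belonged to Kcnj16 (1.26 ± 0.26, adjusted p = 0.37), Kcnh2, the ERG pore (1.12 ± 0.25, adjusted p = 0.42), and Cacna1e (1.70 ± 0.44, adjusted p = 0.50). Kcnh2 was at 7.14, 5.82 and 3.84 TPM in IS and at 14.1, 7.06 and 17.0 in IS-HA. IS-HA replicate 2 lay within the IS range in TPM, and above it in TMM-scaled CPM (18.0, beside 14.5 for the highest IS rat). Those among genes lower belonged to Kcnn4 (−1.26 ± 0.49, adjusted p = 0.54), Kcnk6 (−0.79, adjusted p = 0.55) and Kcnmb1 (−1.15 ± 0.83, adjusted p = 0.66). Kcnmb1 had been kept through IS alone, so its lower level in IS-HA is in part set by the rule. It had 2, 17 and 8 counts in IS and 8, 1 and 5 in IS-HA. DESeq2 called 4 higher (Kcnh2, Kcnj16, Cacna1e and Kcnc2), beside 0.280% of all genes. Without IS-HA replicate 2, edgeR called 10 higher, beside 2.48%. Both called 0 channel genes lower, beside 0.121% and 0.541%.

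Kcnc2, a fast-spiking potassium pore, had the largest value of this comparison and was singled out for that. It was at 16.3 and 45.0 TPM in Normal, at 7.69, 11.5 and 3.23 in IC, at 8.83, 3.04 and 0.770 in IS and at 44.9, 8.38 and 36.5 in IS-HA. IS-HA replicates 1 and 3 lay within the Normal range, and IS-HA replicate 2 lay within the IS range in TPM and above it in TMM-scaled CPM (21.3, beside 17.9 for the highest IS rat). The log2 fold change was 2.75 ± 0.75 (adjusted p = 0.50). Without IS-HA replicate 2, the value was 3.13 ± 0.68 (adjusted p = 0.041). Markers of striatal projection neurons did not share this order. Their summed TPM was 1519 to 3998 in IS and 1574 to 3407 in IS-HA, and the median log2 fold change of these 11 genes was 0.02. Scn4b (−0.36), Kcnip2 (−0.28), Cacna1h (0.03), Kcnj4 (0.02) and Kcnj2 (0.13) likewise had values near or below 0 in IS-HA against IS. Scn4b, Kcnip2 and Cacna1h had the lowest values of their families and do not stand for the channel genes as a set. Of the 110 channel genes, 90 had values above 0 and 20 below. Of the 12 neuron markers, 11 had values above 0 (median 0.60).

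In IS against Normal, neuron markers moved with the channel genes. There, 8 of 12 neuron markers were called lower and 0 higher. Their median log2 fold change was −1.46, beside −1.48 for the channel genes. In IS-HA against Normal, 1 of 12 neuron markers was called lower, beside 47 of 110 channel genes and 7.71% of all genes. The medians there were −0.95 and −1.07. They were −1.17 and −0.91 in IC against Normal, −0.36 and −0.71 in IS against IC, and 0.60 and 0.48 in IS-HA against IS. When each library was shifted by its mean neuron marker level, 11 of 110 channel genes were called lower in IS against Normal and 19 higher, beside 1.42% and 68.2% of all genes. The median was 0.28 for the channel genes and 1.96 for all genes. The 11 were Kcnq3 (−3.69), Kcng3 (−2.93), Cacna1e (−2.56), Kcnh7 (−2.13), Cacnb4 (−1.98), Scn8a (−1.91), Cacna2d1 (−1.78), Kcnk9 (−1.77), Kcnf1 (−1.52), Kcng1 (−1.46) and Kcnd2 (−1.33). Of these, Kcng3 and Kcnh7 had been kept by the rule through Normal alone. Whether neuron number or RNA per neuron changed was not tested.

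Gene length moved with the fold changes as well. The channel genes had a median length 1.27 times that of the median tested gene (sodium 2.34, calcium 1.52 and potassium 1.19 times), and 69.1% of them were longer than it. With all genes tested split into 4 equal bins from the shortest to the longest, the median log2 fold change in IS against Normal was 0.48, 0.18, −0.14 and −0.50, and the share called lower was 8.33%, 12.1%, 18.9% and 28.6%. For the channel genes of these bins (11, 23, 35 and 41 genes), the medians were −0.59, −1.10, −1.38 and −1.81. With a length trend removed from each library, the channel medians were −1.09, −1.31, −1.26 and −1.26. All genes then stood between 0.01 and 0.04, and 64 channel genes were called lower and 6 higher, beside 14.9% and 18.3% of all genes. The origin of the length trend was not tested.

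**Figure D5:**
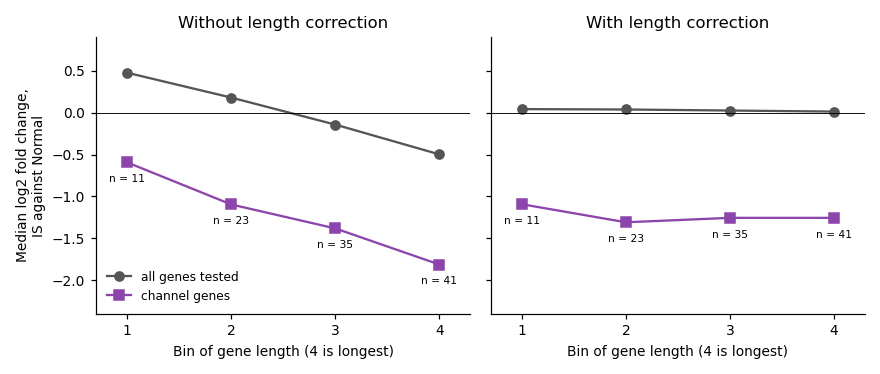
Median log2 fold change in IS against Normal (vertical axis) by bin of gene length (horizontal axis, 4 is longest) for all genes tested and for the channel genes (n under each square), without and with a length trend removed from each library. The trend is flat after removal, and the channel genes stay about as far below all genes, between −1.09 and −1.31.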

How the data were processed

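Poly(A) RNA of 11 rat striata was sequenced as stranded paired-end libraries. Per the labels and the submitters' processing notes, reads were trimmed with fastp 0.20.0, aligned to mRatBN7.2 with HISAT2 2.1.0 and counted per gene with featureCounts, and DESeq2 is named. The authors deposited 1 table of raw counts and TPM per gene and rat. Groups came from the labels, and 0 columns were left unmapped.

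Counts were tested with edgeR 4.0.16 (R 4.3.3): TMM scaling, filterByExpr, 1 quasi-likelihood fit over the 4 groups, and Benjamini-Hochberg adjustment over the 15742 genes tested. Nothing in the labels ties rats to litters or surgical sessions, so the p-values measure the spread between these rats. The SE is the log2 fold change divided by the root of F. Relative gene length is counts divided by TPM, taken relative to the median gene. DESeq2 1.42.0, limma 3.58.1 on log2(TPM + 1), other scalings and filters, a length trend and leaving out each rat were alternatives. The fits were tested on simulated data.

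Named genes were the 2 most abundant of each family, the 6 called in IS against Normal with the most negative and up to 6 with the most positive values, and the 3 of smallest p per direction in IS against IC and IS-HA against IS. Some genes are not reported here. Other genes named are members of the lists or of the calls described. Members and lists were chosen with earlier results of these data known. Intervals and floors cover counting error only. Overlapping genes and paralogs were not separated further.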

Additional observations from a re-analysis of the deposited data

How the results depend on the processing

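Counts of channel genes called moved with the scaling, the tool and the rats included. Leaving out 1 rat at a time, 52 to 76 genes were lower and 4 to 6 higher in IS against Normal. The matching shares of all genes were 9.45 to 18.1% and 13.1 to 19.7%. IC against Normal gave 0 to 43 and 2 to 6 (0.174 to 6.07% and 4.92 to 12.8% of all genes). IS-HA against Normal gave 15 to 52 and 5 to 9 (2.01 to 9.43% and 7.48 to 17.0%). IS against IC gave 0 to 16 lower and 0 to 2 higher (0 to 3.87% and 0 to 2.19%). IS-HA against IS gave 0 lower and 0 to 10 higher (0 to 0.541% and 0 to 2.48%). DESeq2's Wald test gave 43 lower in IC against Normal (4.90% of all genes). It gave 12 lower and 2 higher in IS against IC (2.20% and 1.63%), and 4 higher in IS-HA against IS (0.280%). In IC against Normal, library size alone gave 10 lower (1.34% of all genes) and limma on log2(TPM + 1) gave 9 (1.01%). A fit of only the 2 groups compared gave 46 lower there (6.88%), and 5 higher in IS-HA against Normal (10.2%). Relative to the neuron markers, 11 were lower and 19 higher in IS (1.42% and 68.2% of all genes). There were 0 lower in IC (0.0127%) and 6 lower in IS-HA (0.413%). Compared in TPM instead of scaled CPM, an alternative chosen after seeing the data, 5 channel genes in place of 11 had all IS-HA rats above all IS rats, and 2 in place of 0 had them below. Of all genes, 3.60% in place of 4.96% had them above, and 6.37% in place of 5.42% below. Same-numbered rats are different animals, and the labels do not say whether a number marks a shared session. Their deviations from the group means correlated at a mean of 0.034 between IS and IC (−0.340 to 0.356). The mean was −0.158 between IC and IS-HA and −0.282 between IS and IS-HA. With Normal it was 0.035 for IC, −0.054 for IS and −0.013 for IS-HA. These few pairs cannot decide whether the number matters. With the replicate block, 35 genes were lower in IS than in Normal (5.52% of all genes) and 31 in IS-HA (3.71%). In IC, 0 were lower (0.0953%) and 2 higher (5.23%). With the block and the gene length correction, 31 were lower in IS (5.66%) and 31 in IS-HA (3.93%). In IC that fit gave 1 lower (0.222%) and 3 higher (5.93%). Of the named genes, 10 lost their call in IS against Normal with the block, and 11 with the block and the correction. Among the named genes, the sign in IS against Normal turned relative to the neuron markers for Cacna1h (0.35), Cacnb3 (0.53), Cacnb1 (0.63), Cacng7 (0.85), Cacng4 (0.92), Kcnk2 (0.34), Kcnk1 (0.51), Kcnip2 (0.41), Kcnt1 (0.69), Kcnmb4 (1.10), Kcnj4 (0.048), Kcnj9 (0.69), Kcnrg (0.97) and Kcna6 (0.56). Without Normal replicate 3, Scn2a (adjusted p = 0.051), Kcnk2 (0.059), Kcna6 (0.089) and Kcne3 (0.076) were no longer called. Kcna6 was not called without IS replicate 4 (−0.80) or with the gene length correction (−0.55), nor was Kcnt1 with that correction (−0.88). The cause was not tested. Genes near the floor of 3 counts, such as Kcng3 and Kcne3, are limited by depth.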
